A study of Arabidopsis thaliana with 9 samples.

Results

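This report describes 8 Arabidopsis thaliana genes whose proteins are known partners of the transcription factor PERIANTHIA (PAN) or of its TGA relatives: NPR1, NPR2, NPR3, NPR4, BOP1, BOP2, ROXY1 and ROXY2. They were taken by locus and not by their values, from a table of 33201 rows. Earlier results of these data were known when the set was chosen. The study used Col-0 plants carrying XVE:PAN, a transgene through which β-estradiol switches PAN on. Plants grew on 1X MS medium with 1% sucrose and were moved to the same medium with 10 uM β-estradiol, so that the groups were 0 h, 6 h and 24 h of induction at a total age of 5 days, with 3 biological replicates each and 9 samples in all. All groups carried the transgene. A group moved to medium without estradiol and a line without the transgene were not analysed here, so PAN induction, estradiol and the time since transfer cannot be told apart. The promoter that drives the XVE activator and the number of independent lines are not given in the sources used here. The labels name whole root as the source and describe dissection near the root tip.

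TGA factors are bZIP proteins that bind DNA and act through cofactors. NPR proteins combine a BTB domain, which joins proteins to ubiquitin ligases, with ankyrin repeats, and they respond to the defence hormone salicylic acid: NPR1 is known as a coactivator of TGA factors, and NPR3 and NPR4 as corepressors that also bind salicylic acid. BOP1 and BOP2 are relatives of the NPR proteins that pattern leaves and flowers and bind PAN. ROXY1 and ROXY2 are glutaredoxins of a class found in land plants, known from petal and anther development, and ROXY1 is known to bind PAN. PAN itself is known for setting floral organ number and for a role in the stem cell niche of the root.

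The upstream DNA of the genes was examined for TGACG, the letters that TGA factors are known to bind. The windows covered the 250 bases before each gene's annotated start (RefSeq, TAIR10.1) and were searched on both strands. NPR3 held 1 match and NPR4 held 2, while NPR1, NPR2, BOP1, BOP2, ROXY1 and ROXY2 held 0. Of 27443 such windows of protein-coding genes, 18.6% held at least 1 match and 3.21% held 2 or more. The windows of NPR3 and NPR4 are printed because these were the 2 genes called higher at 6 h, and that of NPR1 because it lies beside them in function without such a call. Capitals mark TGACG or its complement, the windows read 5′ to 3′ on the gene's strand, and positions are counted back from -1 at the base before the start.
NPR3, chr5:18228518-18228767, plus strand: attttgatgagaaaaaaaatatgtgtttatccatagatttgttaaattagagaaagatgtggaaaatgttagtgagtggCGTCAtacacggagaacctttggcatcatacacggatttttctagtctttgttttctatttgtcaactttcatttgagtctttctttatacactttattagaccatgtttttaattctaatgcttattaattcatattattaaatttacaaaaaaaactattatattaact
NPR4, chr4:10698812-10699061, minus strand: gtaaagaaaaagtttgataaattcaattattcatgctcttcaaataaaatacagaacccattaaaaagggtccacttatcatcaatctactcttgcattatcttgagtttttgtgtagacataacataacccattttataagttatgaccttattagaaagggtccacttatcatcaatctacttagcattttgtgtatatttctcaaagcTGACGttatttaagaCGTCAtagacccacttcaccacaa
NPR1, chr1:23855659-23855908, minus strand: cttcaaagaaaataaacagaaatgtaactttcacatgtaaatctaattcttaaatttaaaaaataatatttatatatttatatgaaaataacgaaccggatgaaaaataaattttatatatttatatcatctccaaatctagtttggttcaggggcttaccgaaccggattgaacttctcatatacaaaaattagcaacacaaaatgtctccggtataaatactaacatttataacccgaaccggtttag
The match of NPR3 begins at -171, and those of NPR4 begin at -39 and -24. A match describes the letters and does not show binding, and a window with 0 matches says nothing of more distant DNA. Among rows called higher at 6 h against 0 h, 25.7% of the 697 with a window held the letters, against 17.6% of the 1288 called lower and 19.3% of all 17101 rows tested with a window. These shares were not tested.

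The table holds 1 FPKM value per gene and time (fragment counts corrected for the transcript's length and the library's size), which the authors made from the 3 replicates. No spread between replicates can therefore be shown, and the files give no depth per sample. What is known of replicate error lies in the q-values that the authors' deposited table gives. A gene was called where that q-value was below 0.05 and the mean over the 3 times was at least 1 FPKM, which 17841 rows reached. Summed FPKM lay between 860568 and 989899 per time. The targeted gene matched its labels: PAN had 1.03, 688 and 385 FPKM at 0, 6 and 24 h. Of the 8 genes, NPR1, NPR3, NPR4 and BOP2 passed the minimum mean, and the other 4 did not.

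Root identity was checked on marker genes. Root hair markers (3 of 3 detected) summed to 587, 514 and 294 FPKM at 0, 6 and 24 h, and all 3 fell at 24 h against 0 h. Of these, COBL9 and RHD6 had already fallen at 6 h, with log2 fold changes of -0.56 and -0.63 and q-values of 0.0112 and 0.00379 in the authors' deposited table. Root cap markers (2 of 2) summed to 62.6, 57.3 and 25.1 FPKM, and both fell at 24 h. Endodermis markers (2 of 2) summed to 847, 633 and 589 FPKM, of which CASP1 made up 792, 588 and 536 FPKM. CASP1 was called lower at 24 h against 0 h (q-value 0.0236 in that table). MYB36 had 55.1, 44.6 and 52.6 FPKM and was not called. The 4 meristem and ground tissue markers summed to 123, 126 and 133 FPKM. Of that sum PIN2, an auxin transporter that was not called, made up 93.4, 98.7 and 90.8 FPKM. The root regulators PLT1 and SHR rose at 24 h against 0 h, with log2 fold changes of 1.31 and 0.74 and q-values of 0.00174 and 0.00223 in the authors' deposited table, and PLT1, SHR and SCR rose at 24 h against 6 h. The vascular regulators VND7 and APL summed to 0.748, 0.745 and 1.64 FPKM. The 5 shoot and flower markers summed to 3.55, 2.32 and 14.4 FPKM, of which RBCS1A, a subunit of the carbon-fixing enzyme of leaves, made up 2.99, 1.66 and 12.8 FPKM. RBCS1A was the 1 marker of these that passed the minimum mean, and it was called higher at 24 h against both 0 h and 6 h. The meristem regulator CLV3 was listed at 0 at 0 and 6 h, and STM at 0 h. At 24 h they had 0.110 and 0.0964 FPKM. The floral genes AP3 and PI had 0.523, 0.558 and 1.29 FPKM and 0.0380, 0.0736 and 0.133 FPKM. All 5 markers were thus highest at 24 h. In such bulk samples fewer cells of a type and less RNA per cell cannot be told apart. The part of these shifts in the results that follow was not tested.

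The salicylic acid receptors NPR3 and NPR4 were the responsive genes of the set in the first 6 h. NPR3 (AT5G45110) had 16.8, 38.5 and 30.7 FPKM at 0, 6 and 24 h. It was thus lowest before induction, highest at 6 h and still high at 24 h. By the authors' deposited table its log2 fold change was 1.19 at 6 h against 0 h, a ratio of 2.29, and its q-value 0.000358. This is the smallest q-value in the table, and 7475 tests share it. Its change in log2(FPKM + 1) was 1.15, and 214 of the 17841 rows changed by more in this direction.

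NPR4 (AT4G19660), which shares 78.3% of aligned coding bases with NPR3, had 22.7, 39.2 and 20.95 FPKM at 0, 6 and 24 h. The 6 h value stands apart, and the values at 0 and 24 h lie close together. Its log2 fold change for 6 h against 0 h was 0.79, with the q-value again at 0.000358, by the authors' deposited table. The change in log2(FPKM + 1) was 0.76, with 450 rows above it. NPR3 and NPR4 were the 2 genes called of the 4 that passed the minimum mean, both higher. Of all rows tested, 11.3% were called at 6 h against 0 h, 3.98% higher and 7.35% lower. With a minimum change of 1 in log2(FPKM + 1), which 2.58% of rows passed as well, NPR3 was the 1 call left. Over all comparisons NPR1, NPR3 and NPR4 were called at least once, as were 54.6% of rows.

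NPR1 (AT1G64280), the coactivator of the family, had 22.05, 25.2 and 17.2 FPKM at 0, 6 and 24 h. It was highest at 6 h and lowest at 24 h. Its early log2 fold change, for 6 h against 0 h, was 0.19 by the authors' deposited table (q-value 0.478), so it did not pass the test. NPR2 (AT4G26120), the closest relative of NPR1 in the set with 74.8% identity over aligned coding bases, had 0.0239, 0.0532 and 0.0196 FPKM. It was near the bottom of the values above 0 at every time, and no direction can be read from it.

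**Figure D1:**
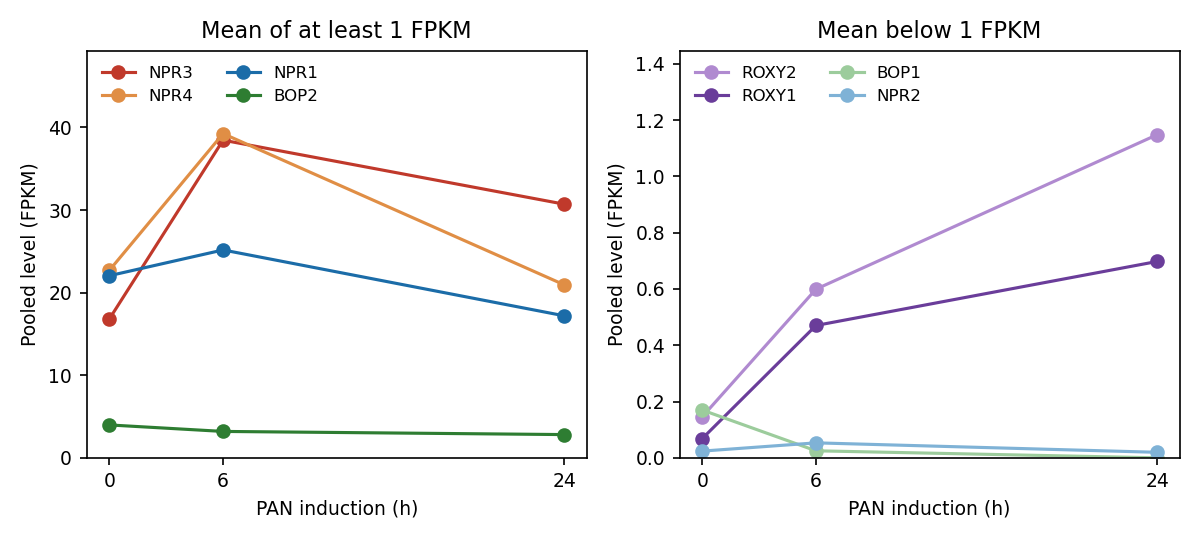
Pooled level in FPKM (vertical axis) of the 8 genes at 0, 6 and 24 h of PAN induction (horizontal axis), with 1 point per gene and time and no error bars because replicates were combined before deposit; the panels have different scales. NPR3 and NPR4 reach 38.5 and 39.2 FPKM at 6 h, while ROXY1 and ROXY2 stay at or below 1.15 FPKM.

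The shares of the NPR genes in their summed level differed between the times. Summed over the 4 genes, the family had 61.6, 103 and 68.9 FPKM at 0, 6 and 24 h. NPR1 made up 35.8%, 24.5% and 25.0% of that sum, NPR3 27.3%, 37.4% and 44.6%, and NPR4 36.9%, 38.1% and 30.4%. The ratio of NPR3 to NPR1 was 0.763, 1.53 and 1.79, and that of NPR4 to NPR1 was 1.03, 1.56 and 1.22. Thus NPR1 and NPR4 were the more abundant genes at 0 h and NPR3 was the most abundant at 24 h. At 6 h NPR3 and NPR4 lay within 1 FPKM of each other. These ratios come from pooled values and carry no error, and the order of levels between genes was not tested.

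**Figure D2:**
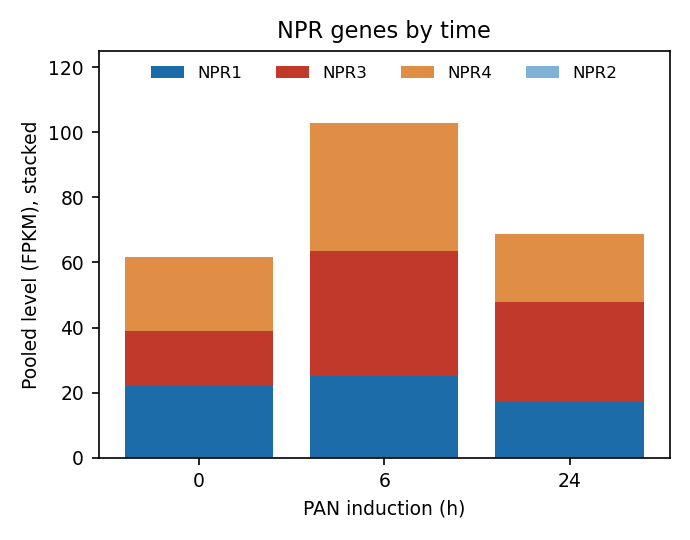
FPKM of the NPR genes stacked into 1 bar for each time of PAN induction. The summed bar is highest at 6 h (103 FPKM), and the NPR3 segment is larger at 6 and 24 h than at 0 h; NPR2 is too low to be seen.

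At 24 h against 0 h, NPR3 was the 1 gene of the set that was called. It had 30.7 FPKM at 24 h, against 16.8 FPKM at 0 h; by the authors' deposited table the log2 fold change was 0.87 and the q-value 0.000358. In this comparison 47.7% of all rows tested were called, 23.8% higher and as large a share lower, so 1 call among 4 genes is not above the background. A minimum change of 1, passed by 17.8% of rows, left 0 of the 4. NPR4 had 20.95 FPKM at 24 h, against 22.7 FPKM at 0 h, with a log2 fold change of -0.12 in that table and a q-value of 0.705. NPR1 had 17.2 FPKM at 24 h, against 22.05 FPKM at 0 h, with a log2 fold change of -0.36 there (q-value 0.141).

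Between 6 and 24 h, NPR4 and NPR1 fell. NPR4 had 20.95 FPKM at 24 h, against 39.2 FPKM at 6 h, a log2 fold change of -0.91 by the authors' deposited table (q-value 0.000358). NPR1 had 17.2 FPKM at 24 h, against 25.2 FPKM at 6 h, with a log2 fold change of -0.55 in that table (q-value 0.0124). With a limit of 0.01 on the q-value NPR1 would not be called. NPR3, at -0.32 there (q-value 0.182), did not pass. The share of all rows called was 39.4%, with 19.6% higher and 19.8% lower, so 2 of 4 genes called lower are to be read against a common outcome. A minimum change of 1, passed by 11.5% of rows, left 0 of the 4. The comparisons share the libraries of each time, and their results are not independent of each other.

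**Figure D3:**
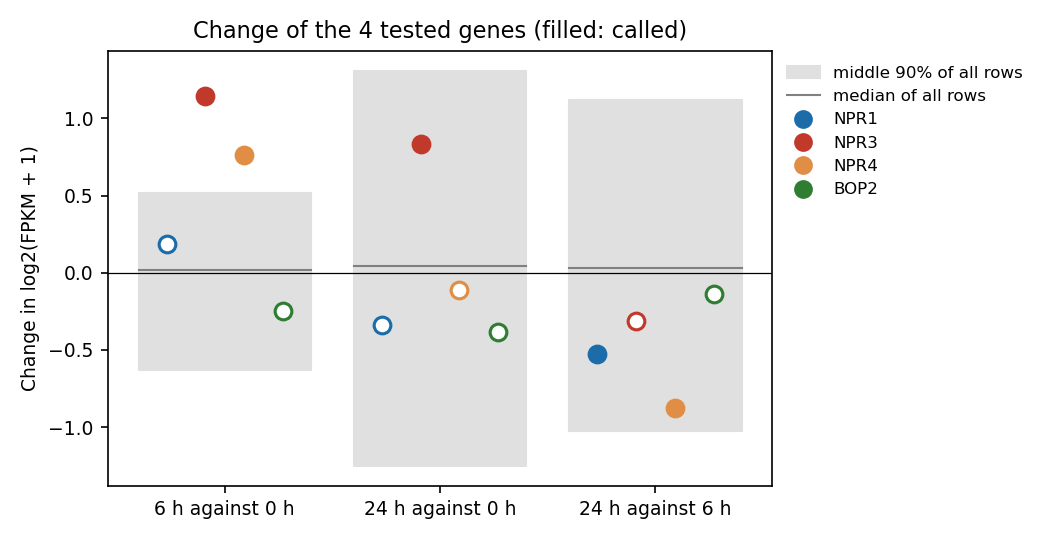
Change in log2(FPKM + 1) (vertical axis) of NPR1, NPR3, NPR4 and BOP2 in each comparison (horizontal axis); filled points were called, open points were not, the grey band holds the middle 90% of 17841 rows and the grey line is their median. At 6 h against 0 h NPR3 (1.15) and NPR4 (0.76) lie above the band, whose upper edge is 0.52, while no other point leaves its band.

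BOP2 was the only BOP gene above the minimum mean. BOP2 (AT2G41370) had 3.98, 3.20 and 2.81 FPKM at 0, 6 and 24 h. The values lie close together, with the lowest at 24 h. By the authors' deposited table its log2 fold change was -0.32 for the first 6 h (q-value 0.3999) and -0.50 for 24 h against 0 h (q-value 0.155). For 24 h against 6 h it was -0.18 (q-value 0.680), so BOP2 was called in none of the comparisons. BOP1 (AT3G57130), which shares 80.8% of aligned coding bases with BOP2, had 0.170 FPKM before induction, 0.0250 FPKM at 6 h and a listed value of 0 at 24 h. Its q-value in that table was 1 in each comparison.

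ROXY1 and ROXY2 were detected at low levels, and neither has an informative q-value. ROXY1 (AT3G02000) had 0.0685, 0.470 and 0.698 FPKM at 0, 6 and 24 h. ROXY2 (AT5G14070) had 0.146, 0.599 and 1.15 FPKM. In both genes the lowest value is at 0 h and the highest at 24 h. By the authors' deposited table the log2 fold change for 24 h against 0 h was 3.35 for ROXY1 and 2.97 for ROXY2, and the q-value was 1 for each gene in every comparison.

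A q-value of 1 is common at such levels in the authors' deposited table. For 24 h against 0 h it is found in 99.3% of the 728 rows with a mean from 0.3 to below 0.5 FPKM, and in 71.3% of the 1178 rows from 0.5 to below 1. The 0 h values are close to the lowest the table holds. Among 2780 values above 0 at 0 h in rows with a transcript of 600 to below 1000 bp, 3.74% were below that of ROXY1 and 10.3% below that of ROXY2. Of 3284 rows with a mean below 1 and no value at 0, 62 and 103 had a log2 fold change at 24 h against 0 h at least as large as those of ROXY1 and ROXY2. The values of these genes are therefore given as a description, with no call.

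ROXY1 also lies wholly within a gene on the other strand. All 699 stretches of 100 bp in its 798 bp transcript are found in the longest transcript of AT3G01990, called ACR6, in the TAIR10.1 annotation. That gene had 1.28, 1.95 and 0.964 FPKM at 0, 6 and 24 h, more than ROXY1 at each time, and it was lowest when ROXY1 was highest. The libraries were made with a directional kit, but whether the authors counted by strand is not given in the sources used here, and without strand the reads of these genes cannot be told apart. ROXY2 shared 0 stretches with any other gene. NPR1 shared 4.57% of its stretches and BOP2 9.59% with genes on the other strand, AT1G08667 and AT2G41375, and NPR2, NPR3, NPR4 and BOP1 shared 0.

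Transcript length moved with the change at 24 h across all genes. In the set the short ROXY1 and ROXY2 had higher values at 24 h than at 0 h, without a call. NPR3, whose transcript is the longest of the set at 2622 bp, was called higher. The set does not reach the long end, where the median change at 24 h against 0 h was -0.62 in the class around 5612 bp. The longest transcripts of the NPR genes measure 2329 to 2622 bp, those of BOP1 and BOP2 1835 and 2174 bp, and those of ROXY1 and ROXY2 798 and 806 bp. At 24 h against 0 h the running median of the change in log2(FPKM + 1) was -0.21 at the length of NPR3, whose own change was 0.83. At the lengths of ROXY1 and ROXY2 it was 0.61 and 0.60, beside their own changes of 0.67 and 0.91. After removal of this trend the change of NPR3 was 1.04. The trend rests on rows with a mean of at least 1 FPKM, which ROXY1 and ROXY2 are not. For 24 h against 6 h the trend was -0.22 at NPR1, whose own change was -0.52 and -0.30 without the trend. It was -0.16 at NPR4, whose own change was -0.87 and -0.72 without the trend. In the first 6 h it was at most 0.05 for any of the 8 genes.

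**Figure D4:**
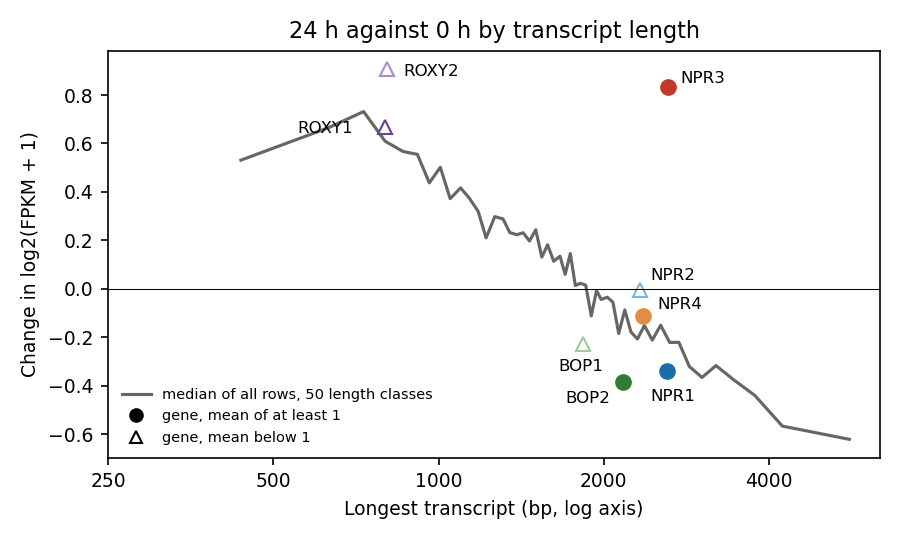
Change in log2(FPKM + 1) at 24 h against 0 h (vertical axis) by length of the longest transcript (horizontal log axis); the line is the median of 17501 rows in 50 length classes, circles are genes with a mean of at least 1 FPKM and triangles genes below it. NPR3 lies well above the line at its length, and ROXY1 lies near it.

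The genes that act with NPR proteins were examined as a list of 12, all of which passed the minimum mean. In the first 6 h, 2 rose and 0 fell. At 24 h, 3 were higher and 2 lower than at 0 h, and 2 higher and 2 lower than at 6 h. Of all rows 11.3%, 47.7% and 39.4% were called in these comparisons, so the 24 h counts do not exceed the background. The median change in log2(FPKM + 1) was -0.06, 0.31 and -0.03 in the same order, beside 0.02, 0.05 and 0.03 over all rows. The median length trend of the list was 0.02, 0.20 and 0.18. The genes called at 6 h were NIMIN1 and NIMIN2, whose small proteins bind NPR1 and dampen its activity. Of these, NIMIN1 entered the counts only through the times at which it was high.

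NIMIN2 had 6.25, 21.1 and 21.4 FPKM at 0, 6 and 24 h, with log2 fold changes of 1.76 and 1.78 at 6 and 24 h over 0 h by the authors' deposited table, and a q-value of 0.000358 for both. Its change in log2(FPKM + 1) at 24 h against 0 h was 1.63, and 0.93 without the length trend. NIMIN1 had 0.377, 4.45 and 4.11 FPKM, with q-values of 0.0455 and 0.0461 in that table. Its call at 6 h was lost when p-values were adjusted within the comparison (adjusted p = 0.132). NIMIN1 passed the minimum mean through its later values, and its 24 h change of 1.89 in log2(FPKM + 1) was 1.23 without the length trend. WRKY18, a regulator of defence genes, was flat until 6 h and had 7.44, 7.08 and 24.5 FPKM. By the authors' deposited table it changed by 1.72 (log2) from 0 h at 24 h, with q-value 0.000358. NIMIN3 was called in 1 comparison, with 4.50 FPKM at 24 h against 1.22 FPKM at 6 h and a q-value of 0.00643 there; that change was 1.31 in log2(FPKM + 1), and 0.73 without the length trend.

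CUL3A, the scaffold of the ubiquitin ligase that takes BTB proteins as adaptors, fell at 24 h. It had 29.6 FPKM at 24 h, against 44.5 FPKM at 0 h, a log2 fold change of -0.59 by the authors' deposited table (q-value 0.00379). NRB4, a Mediator subunit needed for the salicylate response, had 7.77 FPKM at 24 h, against 14.9 FPKM at 0 h, with a log2 fold change of -0.94 there (q-value 0.000358). In log2(FPKM + 1) the length trend was -0.29 at CUL3A, whose change was -0.58, and -0.59 at NRB4, whose change was -0.86. Without it the changes were -0.28 and -0.27. The other genes of the list, among them the thioredoxin genes TRXH3 and TRXH5 and the nitrosoglutathione reductase gene GSNOR1, were not called. GSNOR1 had 212, 211 and 213 FPKM at 0, 6 and 24 h.

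Genes known to respond to salicylic acid through NPR proteins formed a list of 10, of which 7 passed the minimum mean. Over the first 6 h, 4 were called higher and 0 lower, namely WRKY38, WRKY70, GRX480 and DMR6, where 3.98% of all rows were called higher. The same 4 genes were called higher at 24 h against 0 h, and 3 of the list, WRKY38, WRKY62 and GRX480, were called higher at 24 h against 6 h. WRKY62 entered these counts and the medians only through its 24 h value, where it was high. Calls of higher levels were far commoner at 24 h, at 23.8% of all rows against 0 h and 19.6% against 6 h. The median change was 0.91, 1.33 and 0.34 in log2(FPKM + 1), beside 0.02, 0.05 and 0.03 over all rows and a median length trend of 0.03, 0.23 and 0.22 for the list.

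WRKY38, a WRKY factor of the salicylate response, had 2.39, 8.53 and 27.2 FPKM at 0, 6 and 24 h. GRX480, a glutaredoxin of the ROXY class that binds TGA factors, had 13.7, 40.7 and 88.3 FPKM. Both genes stepped up at each time, and by the authors' deposited table every comparison of either has the q-value 0.000358. WRKY70 had 6.12, 18.2 and 16.9 FPKM, a level reached by 6 h. DMR6, which encodes an enzyme that breaks down salicylic acid, had 31.3, 59.5 and 44.7 FPKM. Without the length trend the change in log2(FPKM + 1) of DMR6 at 24 h against 0 h was 0.29 and not 0.50, and that of GRX480 at 24 h against 6 h was 0.48 and not 1.10.

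WRKY62 had 0.0529, 0.797 and 4.48 FPKM and passed the minimum mean through its 24 h value. It was called at 24 h against 6 h (q-value 0.00174 in the authors' deposited table) and not at 24 h against 0 h (q-value 0.329 there). The pathogenesis-related gene PR1, the classic output of NPR1 and TGA factors in leaves, was listed at 0 at all 3 times, as was PR2. PR5 was listed at 0 at 0 and 6 h and had 0.0315 FPKM at 24 h. Other members were expressed and not called in any comparison. WRKY54 had 13.8, 17.2 and 15.5 FPKM, and DLO1, which encodes a relative of DMR6, had 2.90, 1.90 and 2.69 FPKM at 0, 6 and 24 h. The list thus holds genes that rose, expressed genes that were not called and genes that were hardly detected.

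**Figure D5:**
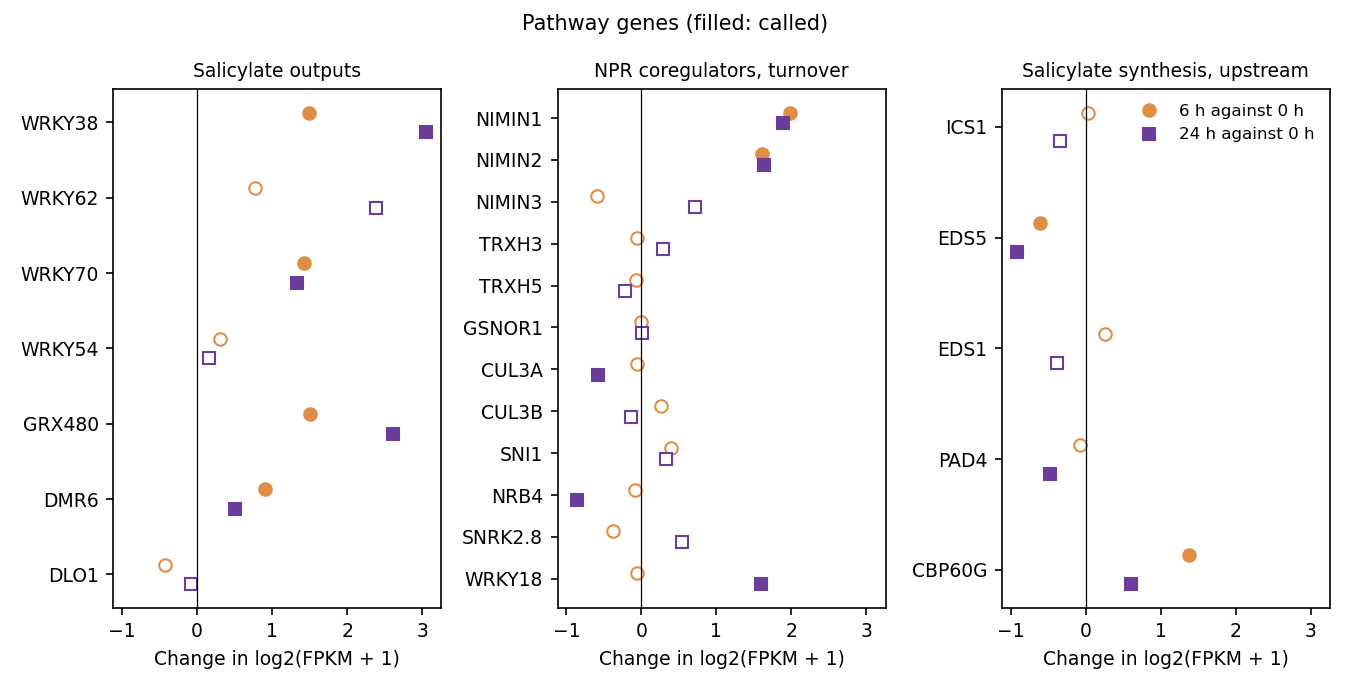
Change in log2(FPKM + 1) (horizontal axis) at 6 h (circles) and 24 h (squares) against 0 h for the genes of 3 lists with a mean of at least 1 FPKM; filled symbols were called and open ones were not. In the left panel WRKY38, WRKY70, GRX480 and DMR6 are filled at both times. In the right panel EDS5 is filled on the side of lower values and CBP60G on that of higher values at both times. PAD4 is filled there on the lower side at 24 h.

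The list of 7 genes for the synthesis of salicylic acid and its upstream control did not move in 1 direction. Of the 5 that passed the minimum mean, 1 was called higher and 1 lower after 6 h. The 1 called higher, CBP60G, passed that minimum through its 6 h value. At 24 h, 1 was higher and 2 lower than at 0 h, and 0 were higher and 2 lower than at 6 h. In the same order 11.3%, 47.7% and 39.4% of all rows were called, so the 24 h counts lie near the background. Their median change in log2(FPKM + 1) from 0 h was 0.04 after 6 h and -0.38 after 24 h. Over all rows it was 0.02 and 0.05, and the median length trend of the list was -0.01 and -0.18. ICS1, the enzyme of the main synthesis route, had 5.41, 5.58 and 4.07 FPKM at 0, 6 and 24 h and was not called. EDS5, the transporter that acts with it, fell to 24.9 FPKM at 6 h and 19.9 FPKM at 24 h, against 38.5 FPKM at 0 h. Its q-values in the authors' deposited table were 0.00564 and 0.000666.

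CBP60G, a transcription factor that drives ICS1 in defence, had 0.341, 2.47 and 1.04 FPKM at 0, 6 and 24 h. It was called higher at 6 h (log2 fold change 2.86, q-value 0.000358) and at 24 h (1.60, q-value 0.00663) against 0 h in the authors' deposited table, and it passed the minimum mean through its 6 h value. PAD4, a defence regulator, had 11.1 FPKM at 24 h, against 15.8 FPKM at 0 h, with a q-value of 0.0393 there. Its change of -0.47 in log2(FPKM + 1) was -0.29 without the length trend. EDS1, its partner, had 15.1 FPKM at 24 h, against 24.1 FPKM at 6 h, with a q-value of 0.00270 there. SARD1, a relative of CBP60G, had 0.297, 0.225 and 2.42 FPKM and had a mean just below the minimum of 1 FPKM, so it was not called. By the authors' deposited table its log2 fold change at 24 h against 0 h was 3.02 (q-value 0.000358), and it would be called higher without that minimum.

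The BOP pathway list was mostly silent. Of its 14 genes, 3 passed the minimum mean: AS1, KNAT1 and KNAT6, transcription factors that BOP proteins are known to act with or on. Relative to 0 h, 0 of the 3 were called at either later time by the authors' deposited q-values, and 0 had an unadjusted p below 0.05. Their median change in log2(FPKM + 1) was -0.33 after 6 h and 0.18 after 24 h, beside 0.02 and 0.05 over all rows. AS1 was called higher at 24 h against 6 h, with 7.56 FPKM at 24 h against 4.68 FPKM at 6 h (q-value 0.0239 by the authors' deposited table), where 19.6% of all rows were higher. The floral regulators LFY and AP1 and the homeobox gene PNF were listed at 0 at all 3 times.

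The ROXY pathway list held 10 genes, of which 5 passed the minimum mean. In the first 6 h, 0 were called by the authors' deposited q-values, and 1 had an unadjusted p below 0.05 when p-values were recovered from them; counts per sample for another tool were not analysed here. At 24 h, 0 were higher and 3 lower, both against 0 h and against 6 h, where 23.8% and 19.8% of all rows were lower. The median change in log2(FPKM + 1) from 0 h was -0.02 after 6 h and -0.64 after 24 h. Over all rows it was 0.02 and 0.05, and the median length trend of the list was 0.01 and -0.19. GR1, a glutathione reductase, had 137 FPKM at 24 h, against 311 FPKM at 0 h, a log2 fold change of -1.18 by the authors' deposited table (q-value 0.000358). GSH1, the first enzyme of glutathione synthesis, had 130 FPKM at 24 h, against 271 FPKM at 0 h, with a log2 fold change of -1.05 there (q-value 0.000358). TPL, a corepressor, had 28.0 FPKM at 24 h, against 44.1 FPKM at 0 h, with a q-value of 0.0152 there. The change of TPL in log2(FPKM + 1) was -0.64, the length trend for its long transcript was -0.55, and -0.09 remained without it. GR2 and GSH2, the other reductase and the second enzyme, were not called. The floral genes RBE and SPL were listed at 0 at all 3 times, and AG, a direct target of PAN in flowers, was listed at 0 at 0 and 6 h and had 0.107 FPKM at 24 h.

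The partners were also set beside the TGA factors themselves. Without PAN, the 9 TGA genes summed to 380, 389 and 201 FPKM at 0, 6 and 24 h, so the ratio of the summed NPR genes to them was 0.162, 0.264 and 0.343. Between 6 and 24 h that ratio rose although the NPR sum fell from 103 to 68.9 FPKM. Of the 10 genes with PAN, 1 rose and 6 fell at 24 h compared with 0 h, with a median change of -0.80 in log2(FPKM + 1). Over all rows 23.8% were lower and the median change was 0.05. The 1 that rose was PAN, the induced gene. TGA4, TGA7 and TGA10 changed by -1.50, -1.66 and -1.18 at 24 h against 0 h, and TGA1 by -1.08 at 24 h against 6 h. Each of these had the q-value 0.000358 by the authors' deposited table. In the first 6 h TGA9 was the 1 gene called lower (q-value 0.00720 there), beside 7.35% of all rows. At 24 h against 6 h, 6 of the 10 were lower, PAN among them, beside 19.8% of all rows. PAN stood at 0.0168, 6.68 and 5.59 times the summed NPR genes at 0, 6 and 24 h, and at 0.259, 215 and 137 times BOP2.

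The rows most like each tested gene were found by distance in log2(FPKM + 1) over the 3 times. For NPR3 the nearest was AT1G53610 at a distance of 0.12, with 18.3, 39.7 and 30.1 FPKM at 0, 6 and 24 h, followed by AT2G39210 at 0.28 and AT1G60010 at 0.31. For NPR4 the nearest single-locus rows were AT1G65481 at 0.13 and AT1G65690 at 0.14, and a row that joins AT1G23170 and AT1G23180 followed at 0.20. SAD2 lay nearest to NPR1 at 0.07, ahead of AT1G80070 and AT1G26580 at 0.09 each. For BOP2 they were AT1G69170 at 0.04, AT1G48280 at 0.07 and ARF17 at 0.08. With 3 values per row such distances are a description of level and shape.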

How the data were processed

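Per the labels' protocols, poly(A) RNA went into directional libraries, sequenced single-end at 100 bp. The submitters' processing notes name TopHat2 2.0.13, Cufflinks 2.1.1, Cuffdiff and TAIR10, with no order. The authors deposited 1 FPKM value per row and time, combined from 3 replicates; the header names no unit, and FPKM was taken from the values and the tools named. The deposited log2 fold changes (later over earlier time) and q-values are the authors', per the file headers, and 282 of 33201 rows join several loci. Smaller values have wider error, and depth is unknown.

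The members and lists were chosen with earlier results of these data known. A limma fit over replicates had been planned and could not be made, so the authors' q-value below 0.05 with a mean of at least 1 FPKM stood in for it, and replicate error could not be recomputed. Changes are differences of log2(value + 1), which understates changes of low genes. The 53530 q-values below 1 were turned back into p-values as a pooled Benjamini-Hochberg adjustment (99.7% were whole multiples of 5e-05 within 5% of that unit) and adjusted again within each comparison. This step and the length correction were tested on simulated data. The length trend is a running median over 50 classes of the longest RefSeq transcript (TAIR10.1), available for 17501 of 17841 rows. Coding identity comes from global alignment of coding DNA; protein sequences were not used here. Upstream windows were read at RefSeq's own TAIR10.1 positions. Named genes were the 8 members, PAN, list genes called with a log2(value + 1) difference of 1 or more, genes a sentence on a role needs, and the 3 nearest rows of each member with a mean of at least 1. Python 3.11.15, pandas 2.3.3, numpy 2.4.6 and Biopython 1.88 were used.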

Additional observations from a re-analysis of the deposited data

Results flagged for a closer look

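NPR4 and NPR1 were singled out because their responses at 6 h and at 24 h differ by the authors' own test of 24 h against 6 h. The log2 fold change in the authors' deposited table was -0.91 for NPR4 (q-value 0.000358) and -0.55 for NPR1 (q-value 0.0124). NPR4 was called at 6 h against 0 h and not at 24 h against 0 h. NPR1 was called in neither. Both comparisons share the 0 h libraries.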

How the results depend on the processing

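No paired analysis was possible because replicates were merged by the authors before deposit, and for the same reason no fit that leaves out a replicate could be run. Of the 106 alternative values for changes of single genes, 105 kept their direction under a pseudocount of 0.1, no pseudocount, median-of-ratios scaling, quantile normalization and removal of the length trend. The exception was NPR4 at 24 h against 0 h, not called, which turned to 0.0558 once the length trend was removed. A change of pseudocount cannot reverse a direction, so the 24 values at 0.1 and the 22 without one were settled in advance. The 24 values under median-of-ratios scaling had little room to reverse, with factors from 0.985 to 1.02. With the length trend removed, 11 values kept their direction and 1 did not. BOP1 has no finite log2 fold change against its 24 h value, and genes below the minimum mean were not corrected for length. Of the 45 alternative counts, 38 stayed within 1.5 times. A minimum change of 1 left 1 of the 2 calls among the 8 genes at 6 h against 0 h (NPR3), 0 of 1 at 24 h against 0 h and 0 of 2 at 24 h against 6 h. A q-value limit of 0.01 left 1 call (NPR4) at 24 h against 6 h. For genes called in any comparison, a minimum change of 1 left 1 of 4 salicylate synthesis genes (CBP60G) and 0 of 1 BOP pathway genes, and the q-value limit of 0.01 also left 0 BOP pathway genes. The list alternatives were chosen after seeing the data. The counts under scaling were not run, since scaling cannot move the deposited q-values.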
